A study of Homo sapiens with 6 samples.

Results

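Of 2732 bins of 1 Mb on human chromosomes 1 to 22 (build hg19) that held at least 1 called site of open chromatin, 137 (5.01%) were peak-dense in control cardiomyocytes. Every peak was placed by its midpoint in bins that start at base 1, and a bin was kept where the 3 control lists together held 180 or more peaks. The bins were therefore selected on measured control values, and their high control peak numbers are a description. Of the other bins, 2583 held 1 to 179 control peaks and 12 held knockdown peaks only.

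The values were 6 lists of peaks from ATAC-seq, an assay in which the Tn5 transposase inserts adapters into open DNA. The cells were ventricular-like cardiomyocytes at day 15 of differentiation from H9, an established human embryonic stem cell line, with 3 control libraries and 3 libraries with knockdown of ZNF436, a zinc finger protein. The labels call the replicates independent differentiations, and they do not say how the knockdown was made or what the control cells received. Read depth is unknown here, the knockdown was not checked, and the lists hold no readout of cell identity beyond the sites themselves.

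Open sites in a differentiated cell lie at promoters and at enhancers, the distal elements that control when a gene is used. Megabases with many open sites are usually rich in genes, as on chromosomes 19, 17 and 16, where housekeeping promoters lie close together. The sequence beside centromeres, by contrast, is poor in genes and built from segmental duplications and satellite repeats, where short reads are hard to place. Dense bins were found on those chromosomes and also near centromeres, but the gene and repeat content of the bins was not measured here.

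The dense bins were spread unevenly over the chromosomes. On chromosome 19, 20 of 58 bins (34.48%) were dense. Chromosome 17 followed with 15 of 80 bins (18.75%) and chromosome 16 with 12 of 81 (14.81%). The much longer chromosome 1 had 15 of 230 (6.52%), and chromosomes 13 and 18 had 0. The 137 bins formed 92 separate runs, of which 64 were single bins. The longest run was 6 bins at chr19:45000001-51000000, the next 5 bins at the p end of chromosome 16 (chr16:1-5000000).

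**Figure D1:**
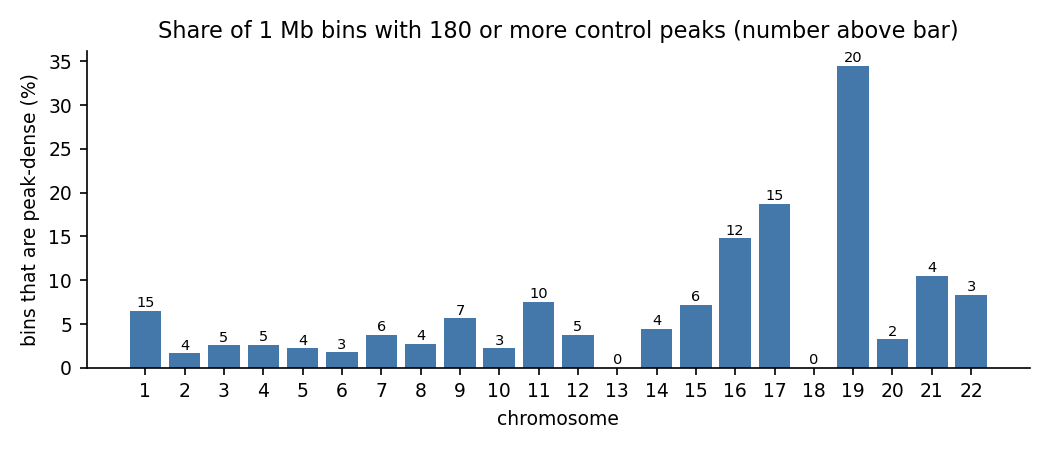
Bars give the percentage of each autosome's 1 Mb bins that held 180 or more control peaks, with the number of such bins above each bar. Chromosome 19 stands highest at 34.48%, and chromosomes 13 and 18 have none.

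Peaks in the 3 control lists together ranged from 181 to 605 per dense bin, with a median of 225. At the threshold, the 3 members with the fewest control peaks held 181 each and the 3 bins just below it held 179 each. Among the former was chr17:4000001-5000000, with 54, 59 and 68 control peaks (replicates 1, 2 and 3) and 91, 88 and 75 knockdown peaks. Just below lay chr6:31000001-32000000, the bin of HLA-B, HLA-C and TNF in the major histocompatibility complex, with 51, 55 and 73 control and 87, 82 and 61 knockdown peaks. These neighbours differ by 2 peaks over 3 lists, so the edge of the set is arbitrary.

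Knockdown libraries held more peaks in the dense bins than control libraries, but a smaller part of their lists. The control lists held 9862, 11004 and 13025 peaks there and the knockdown lists 15416, 14889 and 12541. The lowest knockdown value lay below the highest control value, so the groups overlapped. Per bin these were 82.5 ± 11.7 peaks for control and 104.2 ± 11.2 for knockdown (± SD over 3 libraries), a ratio of 1.264. The ratio was 1.904 over the other bins. As a share of all autosomal peaks of a library, the dense bins held 20.3 ± 0.797% in control and 14.4 ± 0.665% in knockdown. Control peak numbers chose the bins, so the fall in share received no test. Some of it can follow from that choice alone, and how much was not settled. When the same number of bins was chosen on 1 control list and compared through the other 2, knockdown minus control was -5.80, -5.37 and -5.66 points for the choice on list 1, 2 and 3, against -5.82 points as reported. Every control list is shorter than every knockdown list, so these values are no independent check of the fall.

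Covered sequence differed between the groups by more than peak number did, with a ratio of 1.42. Peaks covered 3.65 ± 0.397% of the bases of the dense bins in control and 5.19 ± 0.56% in knockdown, against 0.692 ± 0.1% and 1.37 ± 0.174% in the other bins. Of single dense bins, chr4:49000001-50000000 was the most covered in both groups, with 11.7 ± 0.59% in control and 10.3 ± 0.79% in knockdown. All 6 lists are without overlapping peaks, so no base was counted more than once in a list.

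The excess of knockdown peaks shrank steadily from sparse to dense bins. Bins with 0 to 29 control peaks had 2.609 times as many peaks in knockdown as in control, bins with 90 to 119 had 1.732 times and bins with 150 to 179 had 1.511 times. The dense bins, at 1.264, came last. Since control peaks set both the class and the denominator of the ratio, the slope is a description.

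**Figure D2:**
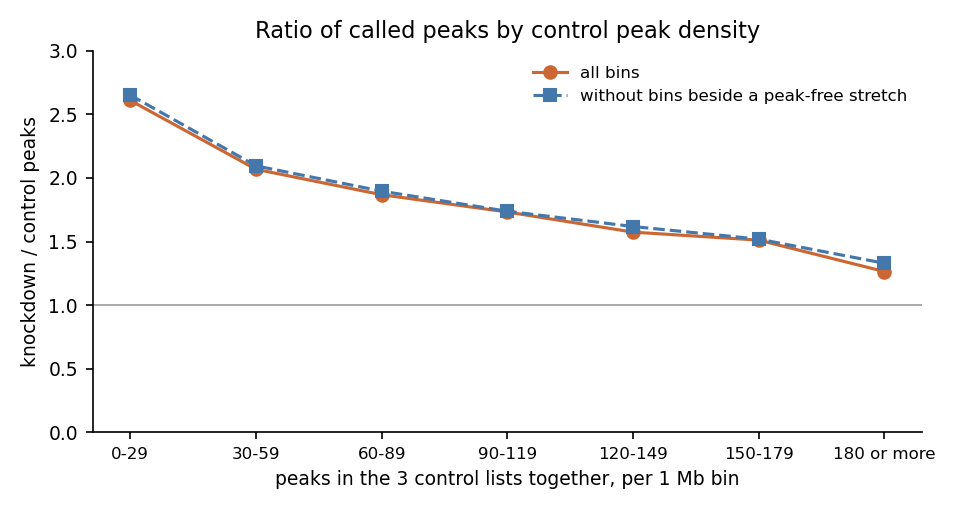
The ratio of knockdown to control peaks (y axis, 3 lists summed in each group) is plotted for 7 classes of bins by control peak number (x axis), over all bins and without bins beside a chromosome's longest peak-free stretch; points are sums and have no error bars. The ratio falls from 2.609 in the sparsest class to 1.264 in the dense bins, or 1.329 without the bins beside a peak-free stretch.

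Single dense bins ranged from a ratio of 0.475 to 1.915, with a median of 1.315. In 65 of the 137 all 3 knockdown libraries had more peaks than every control library, in 3 they had fewer, and in 69 the groups overlapped. Over all 2732 bins, 87.5% had knockdown numbers wholly above control and 0.439% wholly below. These counts share the contrast that chose the bins and nothing was read from them.

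The same holds for the model of each bin's share of the list's peaks. With limma, a linear model that pools the variance over bins, fitted over 2850 bins of the autosomes and X, 20% of bins had a higher and 10% a lower share in knockdown at an adjusted p under 0.05. Of the dense bins, 0 were called higher and 112 lower (median log2 change -0.42 over the dense bins and 0.16 over all bins). Without scaling to list length, 70 dense bins were called higher and 6 lower, against 2562 and 20 of all 2850 bins. The direction is thus relative to the list. With the median ratio over bins as the scale, 0 dense bins were called higher and 127 lower, against 303 and 443 of all 2850.

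Width and score took no part in choosing the bins. Peaks in dense bins were wider in knockdown: their median width was 304, 289 and 286 bp in the control libraries and 335, 330 and 342 bp in the knockdown libraries. All 3 knockdown values lay above all 3 control values (293 ± 9.64 against 336 ± 6.03 bp; exact two-sided permutation p = 0.1, the smallest that 3 against 3 can give). When each list was cut to its strongest peaks, as many as the shortest list holds, the difference in the dense bins was 231.5 bp, and 1840 of 2096 tested bins were called wider. That cut removes the weaker peaks of the longer knockdown lists and none of control list 1, so this value is no support for the difference in the full lists. In the other bins the medians of the full lists were 277 ± 10.0 and 292 ± 8.62 bp, with overlapping groups (exact permutation p = 0.2). Peaks of 1000 bp or more made up 7.98 ± 0.51% of the dense bins' peaks in control and 11.1 ± 0.181% in knockdown.

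Within each library, the dense bins' peaks were wider than those elsewhere. The median was larger by 17, 13 and 19 bp in the control libraries and by 45, 46 and 41 bp in the knockdown libraries (mean 30.2 bp, larger in 6 of 6 libraries; exact sign-flip permutation test over libraries, p = 0.031). That p is the smallest that 6 libraries can reach. With any 1 library left out it was 0.0625, the smallest that 5 can reach. The difference between groups in this excess was 27.7 bp (exact permutation p = 0.1), with no overlap between groups.

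Bin by bin, 95 of the 137 dense bins had wider peaks in knockdown and 3 had narrower ones by limma at an adjusted p under 0.05. The background over 2155 bins with at least 5 peaks in each library was 16.7% wider and 1.76% narrower. The power to call a bin rises with its peaks, so bins just under the threshold are the nearer comparison. Among 197 bins with 120 to 179 control peaks, 71 (36.0%) were called wider and 0 narrower. The median log2 change was 0.24 over the dense bins, 0.17 over those 197 bins and 0.105 over all bins. Without knockdown replicate 1, 62 dense bins were called wider and 3 narrower, against 150 and 8 of the 2155 bins tested.

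The largest gain in width on the log2 scale was in chr7:150000001-151000000, a bin picked here after its values were seen. It holds KCNH2, which encodes the potassium channel of rapid cardiac repolarisation. Mean peak width there was 368, 346 and 419 bp in control and 528, 511 and 530 bp in knockdown (log2 change 0.475 ± 0.067 SE, limma adjusted p = 9.77e-05). The bin's peaks numbered 70, 87 and 94 in control and 114, 116 and 99 in knockdown. Width and number were thus both higher in all 3 knockdown libraries. By log2 change chr8:145000001-146000000 came close, at 0.461 ± 0.066 SE. Its gain in bp was larger, with mean widths of 448 bp in control and 618 bp in knockdown.

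Peak scores are the caller's own values and were used only as percentiles within their own list. The mean percentile of the dense bins' peaks was 48.5, 48.1 and 47.4 in control and 50.2, 49.5 and 50.1 in knockdown. Each knockdown value was above each control value (48.0 ± 0.523 and 49.95 ± 0.357; exact permutation p = 0.1). Relative to the other bins of the same list, dense bins stood 1.89, 2.39 and 3.12 points lower in control (differences of -1.89, -2.39 and -3.12). In knockdown the differences were 0.21, -0.56 and 0.09, close to 0 (exact sign-flip permutation p over the 6 libraries = 0.125). The mean over libraries of -1.28 points turned to 1.52 in lists of equal length.

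By limma, the percentile was called higher in knockdown in 4 dense bins and lower in 9. Over all 2155 bins, 0.464% were called higher and 1.02% lower, and of the 197 bins just under the threshold 1 was called each way. Of the 4 higher calls, 3 were among the 12 dense bins of chromosome 16, and the other dense bins of that chromosome were not called. The 3 included chr16:1000001-2000000, which rose from 37.4 to 45.7 (change 8.29 ± 1.84 points SE, limma adjusted p = 0.023). That bin was picked here after its values were seen. The higher calls varied with the libraries used. Without control replicate 3 there were 7 higher and 9 lower, against 46 and 54 over all bins. Without control replicate 2 there were 1 and 7, against 5 and 13 over all bins. Without knockdown replicate 3 there were 0 and 7, the same numbers as over all bins. With the replicate number as a block there were 0 and 9, against 1 and 10 over all bins. At equal list length 30 dense bins were called higher and 2 lower, against 49 and 20 of the 2096 bins tested.

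A second grouping, drawn after the data were seen, divided the dense bins further. On each chromosome the longest stretch empty of peaks in all 6 lists was located, and a bin within 3 Mb of it was called beside it. These stretches span 3.0 to 21.05 Mb and lie at the centromeres or short arms, where hg19 has long runs of unknown sequence. Of the dense bins 14 lay beside such a stretch and 123 did not.

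Dense bins beside a peak-free stretch held fewer peaks on average in knockdown than in control. The control lists held 1495, 1634 and 1462 peaks there and the knockdown lists 1297, 1503 and 1104, a ratio of 0.850 with overlapping groups. In 11 of the 14 bins the knockdown mean was lower. In the other 123 dense bins the ratio was 1.329, with 8367, 9370 and 11563 control and 14119, 13386 and 11437 knockdown peaks, and 3 bins had a lower knockdown mean. Beside the stretches, control replicate 3, the longest control list, held the fewest peaks of the controls, at 1462 against 1495 in replicate 1. Knockdown replicate 2 held more than the longer knockdown replicate 1. Of the 2595 bins that were not dense 48 had a lower knockdown mean. Of these, 40 were among the 141 beside a stretch, where the ratio was 1.463. Control peak numbers chose the dense bins and the grouping was drawn after the data were seen, so these ratios and counts are a description. The part of list length in these numbers was not tested.

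**Figure D3:**
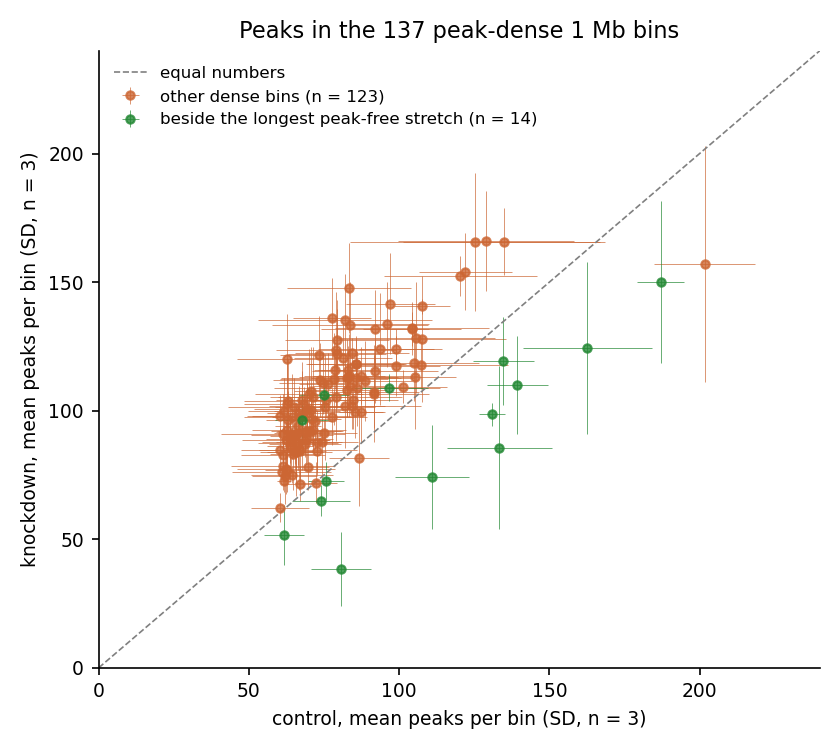
Mean peaks per bin in control (x axis) and knockdown (y axis) for the 137 dense bins, with SD over 3 libraries as error bars and a dashed line of equal numbers. Of the 14 bins beside a peak-free stretch, 11 lie under the line, against 3 of the other 123. Control peak numbers chose the bins, so these counts are a description.

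The rank of scores within a list was lower in knockdown beside a stretch and higher in the other dense bins. Percentiles move with list length, which differed between the groups, so they give a place in the list and not a change in score. The mean percentile beside a stretch was 45.6 ± 2.33 for the control and 37.4 ± 0.621 for the knockdown libraries. In the other dense bins it was 48.4 ± 0.716 and 51.2 ± 0.303. In both sets the groups did not overlap (exact permutation p = 0.1 for each). Of the 9 dense bins with a lower percentile in knockdown, 8 were beside a stretch (57.1% of the 14, against 0.813% of the other 123). The 4 with a higher one were all among those 123 (3.25%), which are most of the dense bins, so their place says little. Median width was 304 ± 13.23 and 300 ± 5.57 bp beside a stretch (exact permutation p = 0.7), against 291 ± 10.4 and 339 ± 6.56 bp in the others. Of the 95 bins called wider 93 were away from a stretch (75.6% of the 123) and 2 beside one (14.3% of the 14). All 3 called narrower lay beside one (21.4% of the 14). The part of read placement in duplicated sequence in these values was not tested.

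**Figure D4:**
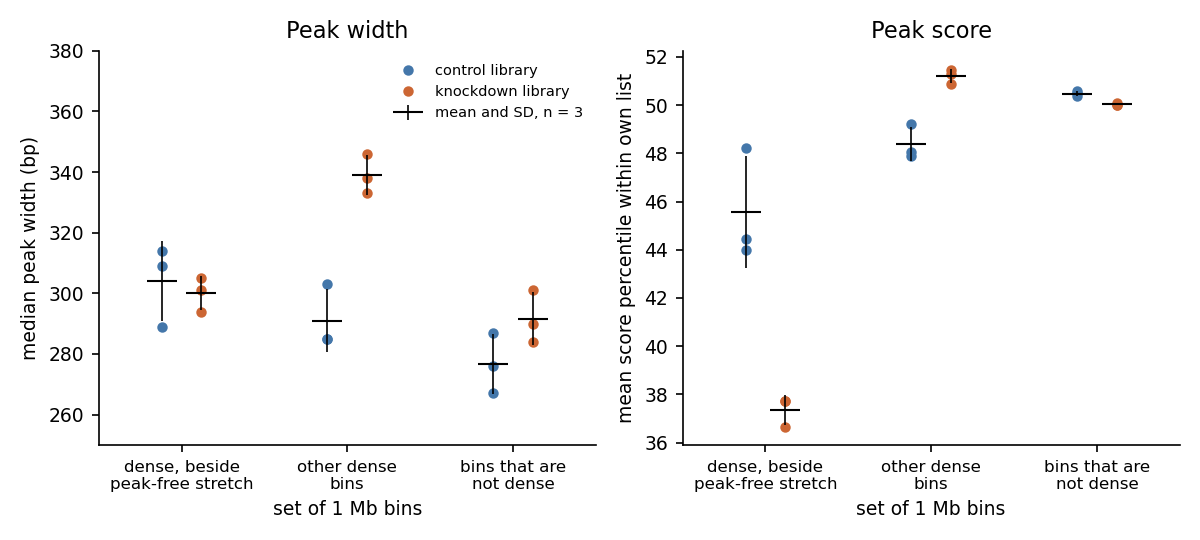
Median peak width in bp (left) and mean score percentile within each list (right), 1 point per library, for dense bins beside a peak-free stretch, other dense bins and bins that were not dense; black marks give the mean and SD (n = 3). In the other dense bins both values are higher in knockdown, while beside a stretch the percentile falls from 45.6 to 37.4.

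Chromosome 21 had 3 consecutive dense bins beside its peak-free stretch. The first, chr21:9000001-10000000, held 168, 181 and 139 control and 113, 162 and 98 knockdown peaks. The second, chr21:10000001-11000000, held 193, 190 and 178 against 151, 181 and 118. The third, chr21:11000001-12000000, held 86, 93 and 111 against 111, 113 and 103. Knockdown replicate 2 was the highest of its group in each of the 3 bins.

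The score percentile was called lower in all 3 bins of that run and the width narrower in the first. In the third bin the percentile was 53.4, 53.8 and 45.5 in control and 28.9, 36.6 and 30.7 in knockdown (change -18.9 ± 2.28 SE, limma adjusted p = 3.21e-05). Its mean width of 1241, 1238 and 802 bp in control, and 734, 870 and 621 bp in knockdown, spread too widely to be called (limma adjusted p = 0.187). In the first bin the mean width narrowed beyond the spread (484 ± 30.5 to 373 ± 38.8 bp; log2 change -0.38 ± 0.067, limma adjusted p = 0.000831).

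Chromosomes 15 and 1 showed the lowest ratios. At chr15:22000001-23000000 the control libraries had 77, 92 and 73 peaks and the knockdown libraries 30, 55 and 30, with no overlap and a ratio of 0.475. Its mean percentile, at 26.3 and 27.2, was low in both groups. At chr1:142000001-143000000 the numbers were 135, 150 and 115 against 84, 118 and 55 (ratio 0.643), and at chr1:143000001-144000000 they were 120, 116 and 97 against 68, 97 and 58 (0.670). In both chromosome 1 bins the groups met at 1 library, knockdown replicate 2.

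A different profile was seen at chr4:49000001-50000000, the bin on the centromere side of the short arm. It held 128, 136 and 129 control and 99, 103 and 94 knockdown peaks (ratio 0.753), with little spread in either group and no overlap. Its peaks were wide, 896 ± 35.0 bp on average in control and 1048 ± 32.6 bp in knockdown, and called wider (limma adjusted p = 0.01). Their mean percentile, 62.2 and 59.6, was not called changed.

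The bin with the most control peaks was none of these. It was chr4:190000001-191000000, near the q end of chromosome 4 where the D4Z4 repeat array of facioscapulohumeral muscular dystrophy lies. It held 206, 216 and 183 control peaks and 144, 208 and 119 knockdown peaks, overlapping at knockdown replicate 2. The mean percentile fell from 36.6 to 26.7 (change -9.93 ± 1.75 SE, limma adjusted p = 0.00294). It was the 1 bin away from a stretch with a lower percentile call. The other members away from a stretch with fewer knockdown peaks were chr3:75000001-76000000 (ratio 0.942) and the p end of chromosome 4 (0.995).

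Among dense bins away from a stretch, the most control peaks after chr4:190000001-191000000 were in the bin of ACTG1, the cytoplasmic gamma-actin gene (chr17:79000001-80000000). It had 109, 123 and 173 control and 170, 176 and 151 knockdown peaks, overlapping at control replicate 3. Mean width was 384, 390 and 382 bp against 530, 505 and 474 bp (log2 change 0.383 ± 0.057, limma adjusted p = 0.000131). The bin of STK11, a kinase upstream of AMPK, and TCF3, a helix-loop-helix factor (chr19:1000001-2000000), held 106, 119 and 162 against 174, 180 and 144 peaks. The bin of the NOTCH1 receptor gene (chr9:139000001-140000000) held 92, 112 and 172 against 185, 177 and 135. In these 3 bins control replicate 3 was well above the other controls.

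The highest ratio among dense bins was at chr5:149000001-150000000, which holds the receptor tyrosine kinase genes PDGFRB, of mural and stromal cells, and CSF1R, of macrophages. It had 47, 61 and 80 control and 139, 117 and 104 knockdown peaks (ratio 1.915). The bin of GSE1 and of IRF8, a factor of myeloid cells (chr16:85000001-86000000), had 69, 74 and 107 against 165, 148 and 130 (1.772). Next was the bin of TNNT2, cardiac troponin T, and TNNI1, the slow skeletal troponin I of the fetal heart (chr1:201000001-202000000). It had 67, 74 and 92 against 150, 139 and 119 (1.751). The bin of ZMIZ1, a transcriptional coactivator gene (chr10:80000001-81000000), had 64, 68 and 88 against 138, 119 and 108 (1.659). The bin of COL18A1, a basement membrane collagen, and ITGB2, a leukocyte integrin (chr21:46000001-47000000), had 61, 70 and 115 against 151, 139 and 116 (1.650). In all 5 every knockdown library was above every control library, in the last by 1 peak. Of these 5 ratios only that of the PDGFRB bin exceeded the 1.904 of the bins that were not dense.

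**Figure D5:**
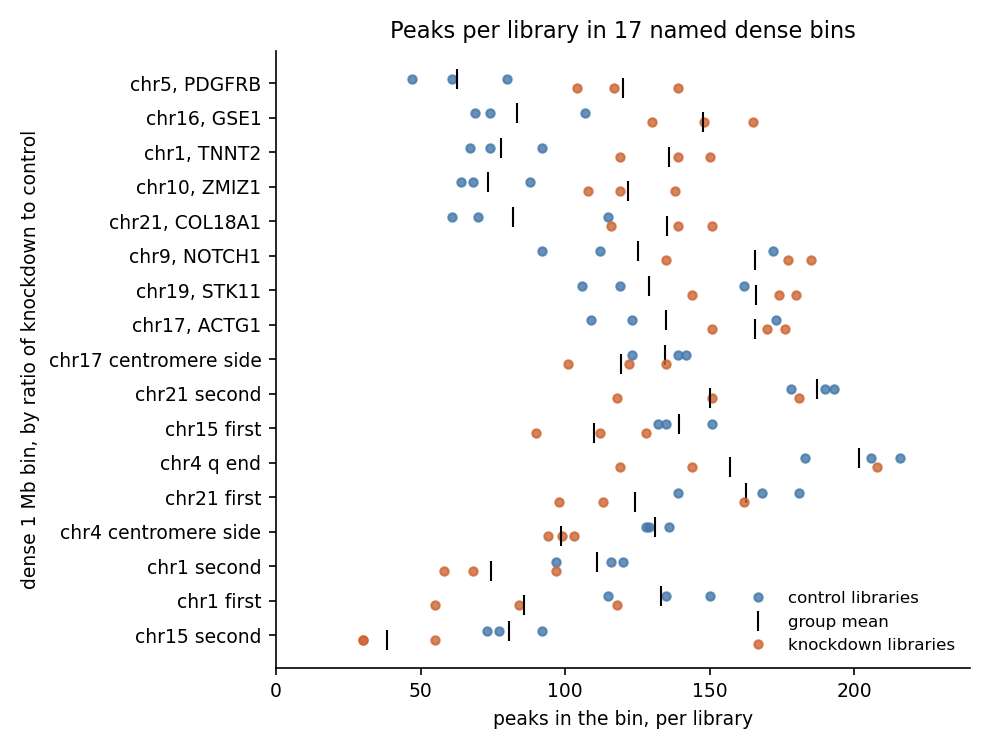
Peaks per library (x axis) in the 10 dense bins with the most control peaks and the 5 with the lowest and the 5 with the highest ratio of knockdown to control (17 bins, some on both lists), ordered by ratio from bottom to top; black ticks are group means. The labels first and second count the named bins of a chromosome along it beside its peak-free stretch. Most knockdown points lie left of the control points in the lowest bins and all lie right of them in the top 5.

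To follow single sites across libraries, peaks from the 6 lists were joined into 1 region wherever they shared a base. In the dense bins 841 regions were called in all 3 knockdown and no control library, 69 in all 3 control and no knockdown library, and 5133 in all 6. The dense bins hold 7.11% of the 11831 autosomal knockdown-only regions, 35.0% of the 197 control-only regions and 18.4% of the 27889 regions shared by all libraries. Per 100 shared regions there were 16.4 knockdown-only regions, against 48.3 in the other bins. Control peaks enter both the choice of bins and these counts, so they are a description. Knockdown-only regions numbered 1775 without control replicate 3 and 1781 without knockdown replicate 3, since fewer lists then had to meet the condition. With lists of equal length the order turned, to 159 knockdown-only and 461 control-only regions. That cut removes the weaker peaks of the longer knockdown lists and none of control list 1, so these counts too are a description.

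Beside a peak-free stretch, control-only regions (39) outnumbered knockdown-only ones (20). In the other dense bins they were 30 and 821. All 11 dense bins with 0 knockdown-only regions lay beside a stretch. Of the 2595 bins that were not dense, 192 had 0 knockdown-only regions, 47 of them among the 141 beside a stretch. Control-only regions numbered 0 in 104 of the 137 dense bins and in 2474 of the 2595 others. After the 11 dense bins with 0, the fewest knockdown-only regions per shared region were at the q end of chromosome 4, with 1 for 50 shared. Then came chr19:17000001-18000000 with 1 for 46, the ICAM adhesion gene bin at chr19:10000001-11000000 with 1 for 36, and chr2:27000001-28000000 with 1 for 34.

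Most knockdown-only regions per shared region were in the bin of INPP5A, an inositol phosphate phosphatase (chr10:134000001-135000000), with 12 for 23. The bin of MAD1L1, of the spindle checkpoint (chr7:2000001-3000000), had 10 for 27. The bin of HIC1, a transcriptional repressor, and YWHAE, a 14-3-3 protein (chr17:1000001-2000000), had 12 for 33. In the last, peaks numbered 66, 73 and 99 in control and 141, 124 and 117 in knockdown. The GSE1 and PDGFRB bins came next, with 35.9 and 34.6 per 100.

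Ranked by the lowest of the 3 score percentiles, the strongest knockdown-only region of the dense bins was chr9:139159124-139159787 (664 bp), in the NOTCH1 bin. It ranked at 86.7, 89.8 and 82.0 in the 3 knockdown lists. The next was chr1:32281425-32282082 (658 bp), at 89.2, 89.8 and 77.5. The strongest control-only regions, ranked in the shorter control lists, were chr21:10162187-10162575 with percentiles of 66.2, 78.5 and 63.2 and chr4:49517781-49518308 with 71.1, 72.0 and 63.2. Of the 5 strongest control-only regions, 4 lay beside a peak-free stretch. In the TNNT2 bin the strongest knockdown-only regions were chr1:201697879-201698266 and chr1:201375703-201376791, with lowest percentiles of 37.1 and 31.9.

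Known gene clusters were looked up by bin. The list held 60 clusters and loci in 67 bins, placed from general knowledge of hg19, and 22 of these bins were dense, against 5.01% of all bins. The list favours well-known loci, so this share is a description. None of the 4 HOX clusters of body patterning genes was in a dense bin: the HOXC bin held 142 control peaks in all, the HOXB bin 138 and the HOXA bin 30. Of 12 bins of KRAB zinc finger gene clusters on chromosome 19, 2 were dense, both at 19p13.2, against 34.48% of all bins of that chromosome. The olfactory receptor bin of 1q44 held 5 control peaks. Dense bins instead held loci such as LMNA (291), NEAT1 with MALAT1 (323) and the alpha-globin genes (323).

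Of 9 bins of heart and sarcomere genes, 2 were dense, beside 22 of the 67 bins of the whole list and 5.01% of all bins. They were the TNNT2 bin, with 233 control peaks in all, and the bin of MYH6 and MYH7, the cardiac myosin heavy chains (chr14:23000001-24000000), with 253. The MYH6 and MYH7 bin had 72, 75 and 106 control and 128, 123 and 116 knockdown peaks and 13 knockdown-only for 46 shared regions. Its mean width rose by 0.299 ± 0.063 on the log2 scale (limma adjusted p = 0.00224), and that of the TNNT2 bin by 0.258 ± 0.065 (limma adjusted p = 0.00732). Just under the threshold were the bins of TNNT1 and TNNI3 (177), TNNI2 and TNNT3 (169), the cardiac factor NKX2-5 (166) and the natriuretic peptides NPPA and NPPB (163). The bin of TTN, the giant sarcomere spring, held 70.

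The first block of the HIST1 histone genes (chr6:26000001-27000000) had the highest mean score percentile of the dense bins in control, at 71.0 ± 1.97, and 68.0 ± 1.61 in knockdown. Its peak numbers, 63, 59 and 63 against 76, 74 and 68, varied little within groups. Its peaks were wide and called wider in knockdown, at 603 ± 6.56 and 770 ± 47.7 bp (limma adjusted p = 0.00146). The 19p13.2 zinc finger bin at chr19:12000001-13000000 held 60, 72 and 69 against 75, 76 and 64 peaks, with overlapping groups, and had a percentile of 64.04 ± 3.22 and 70.6 ± 3.44. Its mean width of 505 ± 32.3 and 646 ± 57.0 bp was also called wider (limma adjusted p = 0.00224). Both bins gained few knockdown-only regions, 3 for 48 shared and 2 for 46.

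Cutting each list to its 50719 strongest peaks, the length of the shortest, lowered every ratio. The dense bins then held 9756 ± 612 control and 7108 ± 118 knockdown peaks, a ratio of 0.729, against 1.07 in the other bins. Of the 137 bins 134 had a ratio under 1, against 14 in the full lists. The cut removes the weaker peaks of the longer knockdown lists and none of control list 1. Control peak numbers also chose the bins, so these ratios are a description and nothing was read from the count. The 3 at or above 1 were the PDGFRB bin with 47, 58 and 61 control and 62, 53 and 66 knockdown peaks, the ZMIZ1 bin (64, 65 and 66 against 63, 65 and 69) and the TNNT2 bin (67, 67 and 73 against 71, 67 and 70). In each of these 3 the groups overlapped. Beside a peak-free stretch the ratio at equal length was 0.268, and in the other dense bins 0.804.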

How the data were processed

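For each library the authors deposited a peak list with hg19 positions and the peak caller's score, a number with no fixed range. The submitters' processing notes name hg19, bedtools 2.30.0 and Bowtie2 2.4.5. The peak names begin with MACS. Not given in the sources used here are the caller's version and threshold, any Tn5 shift and how duplicates were handled. The lists held 50719, 53662 and 68342 peaks in control and 115864, 102454 and 87871 in knockdown, with lowest scores of 20 to 25. Depth is unknown, and longer lists and deeper libraries cannot be told apart from the knockdown. No genome of hg19 was at hand, so no sequence is given.

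Peaks were counted by midpoint and scores ranked as percentiles within each list, in Python 3.11.15. Libraries were compared by exact permutation tests of 3 against 3, and dense with other bins by sign flips over 6 libraries. Bins were tested with limma 3.58.1 in R 4.3.3, trended and robust, with Benjamini-Hochberg adjustment at 0.05. The share was log2((peaks + 0.5) / list total), where the mean over libraries was 2 peaks or more. Width (log2) and percentile needed at least 5 peaks in each library. On simulated data, 200 changes per measure were put only in bins with many peaks, so the rates do not hold for sparse bins. Of 2-fold changes in share 85.5% were called, in a fit of 2850 bins. In fits of 2155 bins, 43.0% of width changes of 0.3 on the log2 scale and 54.0% of percentile changes of 10 points were called. Among the changed bins that were dense, the rates were 94.4% for share, 62.8% for width and 91.4% for percentile.

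The bins named were the 10 with the most control peaks, the 5 highest and 5 lowest ratios, the 5 most and fewest knockdown-only regions per shared region, those at the threshold and those of the list of known clusters. Bins named outside this rule, such as the KCNH2 bin, chr16:1000001-2000000 and chr3:75000001-76000000, were picked after their values were seen. The members and lists were chosen with earlier results of these data known. The bins beside a peak-free stretch and the gene symbols of bins outside the cluster list were chosen after the values were seen. All 52 symbols checked were on the named chromosome in RefSeq (GRCh38.p14), which was used for nothing else. The p-values measure the spread between differentiations. Alternatives were other thresholds, shifted bins, bins chosen on other lists, equal-length lists, other scalings and filters, merging within 100 bp, a replicate block and leaving out each library.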

Additional observations from a re-analysis of the deposited data

Results flagged for a closer look

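In the 123 dense bins away from a peak-free stretch, the mean score percentile minus that of the bins that were not dense was -1.17, -2.41 and -2.69 in the control libraries and 1.45, 0.77 and 1.29 in the knockdown libraries. A result was flagged only where all control libraries had 1 sign and all knockdown libraries the other. The difference between groups was 3.26 points (exact permutation p = 0.1, the smallest possible). The flag rule fixes that p in advance, so it is no support, and the grouping by stretch was drawn after the data were seen.

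Between the 14 dense bins beside a peak-free stretch and the other 123, the median peak width differed by 6, 29 and 4 bp in control and by -44, -32 and -41 bp in knockdown. The signs were opposite between the groups, which is the condition for the flag, with a difference of -52 bp (exact permutation p = 0.1). Here too the flag rule fixes the p in advance, so it is no support.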

How the results depend on the processing

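The dense bins' share of peaks was lower in knockdown by every choice tried (-5.82 points as reported). Most of these choices again picked the bins on control peak numbers, so their common sign is a description and no support. It was -6.95 at 150 control peaks (216 bins), -3.56 at 240 (56 bins), -4.35 with as many bins chosen on the knockdown lists and -4.67 without bins beside a peak-free stretch, an alternative added after seeing the data. It ran from -6.16 to -5.38 with 1 library left out. The excess width of dense bins was 37.4, 35 and 27.7 bp with bins chosen on control list 1, 2 and 3 (5 libraries, p = 0.0625 in each exact sign-flip permutation test) and 27 to 33.6 bp with 1 library left out. The percentile of dense minus other bins (-1.28) passed the threshold at 240 control peaks (-3.24) and with bins chosen on the knockdown lists (-1.93; exact sign-flip permutation p = 0.031 for both), and turned to 1.52 at equal list length (exact sign-flip permutation p = 0.3125). The cause was not tested.

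Of the dense bins, limma called 65 to 109 changed in width with 1 library left out (98 as reported), and 7 to 16 changed in percentile (13 as reported, 32 at equal list length). Over all bins tested, the fits with 1 library left out called 150 to 443 wider and 8 to 63 narrower. By percentile they called 0 to 46 higher and 7 to 54 lower. Knockdown-only regions numbered 1042 to 1781 with 1 library left out and 159 at equal list length, where control-only regions numbered 461. At equal list length the ratios of all 17 bins plotted by library moved by more than 1 SD. With the replicate number as a block, the excess width stayed 30.2 bp with an exact permutation p of 0.25, the smallest that 3 pairs allow. With that block, limma called 115 dense bins by share, 99 by width and 9 by percentile. Over all bins it called 657 higher and 305 lower by share. It called 334 wider and 31 narrower, and 1 higher and 10 lower by percentile. Same-numbered libraries correlated at 0.037, 0.126 and 0.092, so the numbers do not show a pairing, although each control correlated best with its own number. Depth is unknown, so weak sites absent from a list cannot be told from sites not sampled.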

Other observations

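Bins with 0 to 179 control peaks that lay beside a peak-free stretch numbered 141. They held 1.463 times as many peaks in knockdown as in control, against 0.850 in the 14 dense ones, and 40 of the 141 had a lower knockdown mean. Their mean score percentile was 53.2 ± 0.319 for the control and 52.2 ± 0.58 for the knockdown libraries (± SD, n = 3).

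The order of bins by peak number changed with the group. Of the 137 bins with the most knockdown peaks, 107 (78.1%) were among the dense bins of control cells. Of the 30 dense bins that left this group, 6 lay beside a peak-free stretch.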
